A study of Rattus norvegicus with 8 samples.

Results

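Calcium oxalate stones are held together by a small organic matrix, and this account follows 10 rat genes whose proteins are found in that matrix or bind its crystals. They are Spp1, Cd44, Mgp, Ambp, Itih1, Itih3, Itih4, Nucb1, F2 and Ahsg. They were chosen by name, as every probe set annotated with 1 of these symbols alone, and all 10 were measured, each by 1 probe set, among 18166 genes in all. The tissue was kidney of 10-week-old male Wistar rats, taken as 4 arrays of medulla and 4 arrays of cortex. All 8 arrays carry the same treatment label, ethylene glycol every day and vitamin D on alternate days for 1 week, and no comparison of treatments was made. Arrays of the same region nevertheless differed widely. Cyp24a1, the vitamin D 24-hydroxylase gene that vitamin D induces, measured 5.31, 5.69, 10.08 and 9.97 on medulla replicates 1 to 4, against 5.42, 6.21, 10.18 and 10.65 on cortex replicates 1 to 4. The labels give no grouping within a region, and whether the arrays differ in treatment, dose or response cannot be told from them. Ethylene glycol is metabolised to oxalate, and vitamin D raises calcium uptake. The labels do not say which arrays come from the same animal, so a p-value here reflects variation among arrays that may be technical. Replicate numbers below name the arrays of a region in label order and pair nothing across regions.

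Stone matrix proteins act on crystals in several ways. Osteopontin, the product of Spp1, is an acidic, phosphorylated glycoprotein secreted by tubular epithelium that coats crystals and slows their growth and aggregation, and it binds integrins and CD44 on cells. CD44 is also the main cell surface receptor of hyaluronan, to which crystals adhere on injured or regenerating tubular cells. Matrix Gla protein, from Mgp, is a vitamin K dependent inhibitor of soft tissue calcification. Bikunin, cut from the Ambp precursor, is joined to heavy chains encoded by Itih genes in the inter-alpha-trypsin inhibitor family, which was found in urine as an inhibitor of crystallisation. Prothrombin (F2) leaves a Gla-containing fragment in stones, fetuin-A (Ahsg) binds calcium phosphate in plasma, and nucleobindin (Nucb1) is a calcium-binding protein of the Golgi.

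The promoter sequences of Spp1 and Cd44 are shown because these genes moved together across the arrays, as described further on. Of the 10 genes 9 had an entry in the RefSeq promoter table of build GRCr8, and the entry not found there is Mgp. Each line below is the 250 bases before the annotated start, read on the gene's own strand from 5′ to 3′. Spp1 lies at chr14:5619805-5620054 on the minus strand and Cd44 at chr3:109699425-109699674 on the minus strand. Capitals mark matches on either strand to TATAAA (the TATA box), ACCNCA and AGGTCA (a nuclear receptor half-site). They also mark TGANTCA (the AP-1 site), CCAAT (the CCAAT box) and GGGCGG (the GC box). ACCNCA is a loose form of the RUNX core with any base at N, so it also takes stretches outside that core.
Spp1: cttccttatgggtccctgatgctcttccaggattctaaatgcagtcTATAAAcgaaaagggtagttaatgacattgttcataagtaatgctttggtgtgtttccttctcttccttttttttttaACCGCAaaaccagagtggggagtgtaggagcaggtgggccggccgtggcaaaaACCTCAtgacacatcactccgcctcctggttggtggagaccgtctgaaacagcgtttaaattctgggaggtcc
Cd44: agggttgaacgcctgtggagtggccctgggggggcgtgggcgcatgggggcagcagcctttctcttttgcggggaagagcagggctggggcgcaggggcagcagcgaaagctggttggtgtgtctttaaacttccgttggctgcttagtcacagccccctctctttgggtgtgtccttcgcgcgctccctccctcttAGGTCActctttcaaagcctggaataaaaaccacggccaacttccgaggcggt
The Spp1 window held 1 match to TATAAA and 2 to ACCNCA. The Cd44 window held 1 match to AGGTCA, and no matches overlapped. The TATAAA match of Spp1 lay 204 to 199 bases before the annotated start, and whether it acts as a TATA box was not tested. Of 33469 rat promoters of the same length, 12.9% held TATAAA, 41% ACCNCA and 14.1% AGGTCA. The AP-1 site TGANTCA, in 6.34% of promoters, CCAAT, in 34%, and GGGCGG, in 30.5%, had no match in either window. The 2 windows therefore shared none of the 6 searched motifs. Their GC content was 46.8% for Spp1 and 60.8% for Cd44, against a median of 51.2% over all promoters.

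The 10 genes fell into 3 patterns. Spp1, Cd44 and Mgp varied at least 2-fold between arrays of the same region in both regions and were highest on the same arrays. F2 varied at least 2-fold in cortex with another order of arrays. The other 6 genes stayed within 0.57 log2 units in each region. None of the 10 separated medulla from cortex. Values are log2 of the deposited intensity, on which 1 unit is 2-fold, and the range is the highest minus the lowest array of a region. The design text selects genes at 2-fold within medulla and within cortex, but which arrays it set against each other is not labelled, so ranges are given as descriptions with no test.

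**Figure D1:**
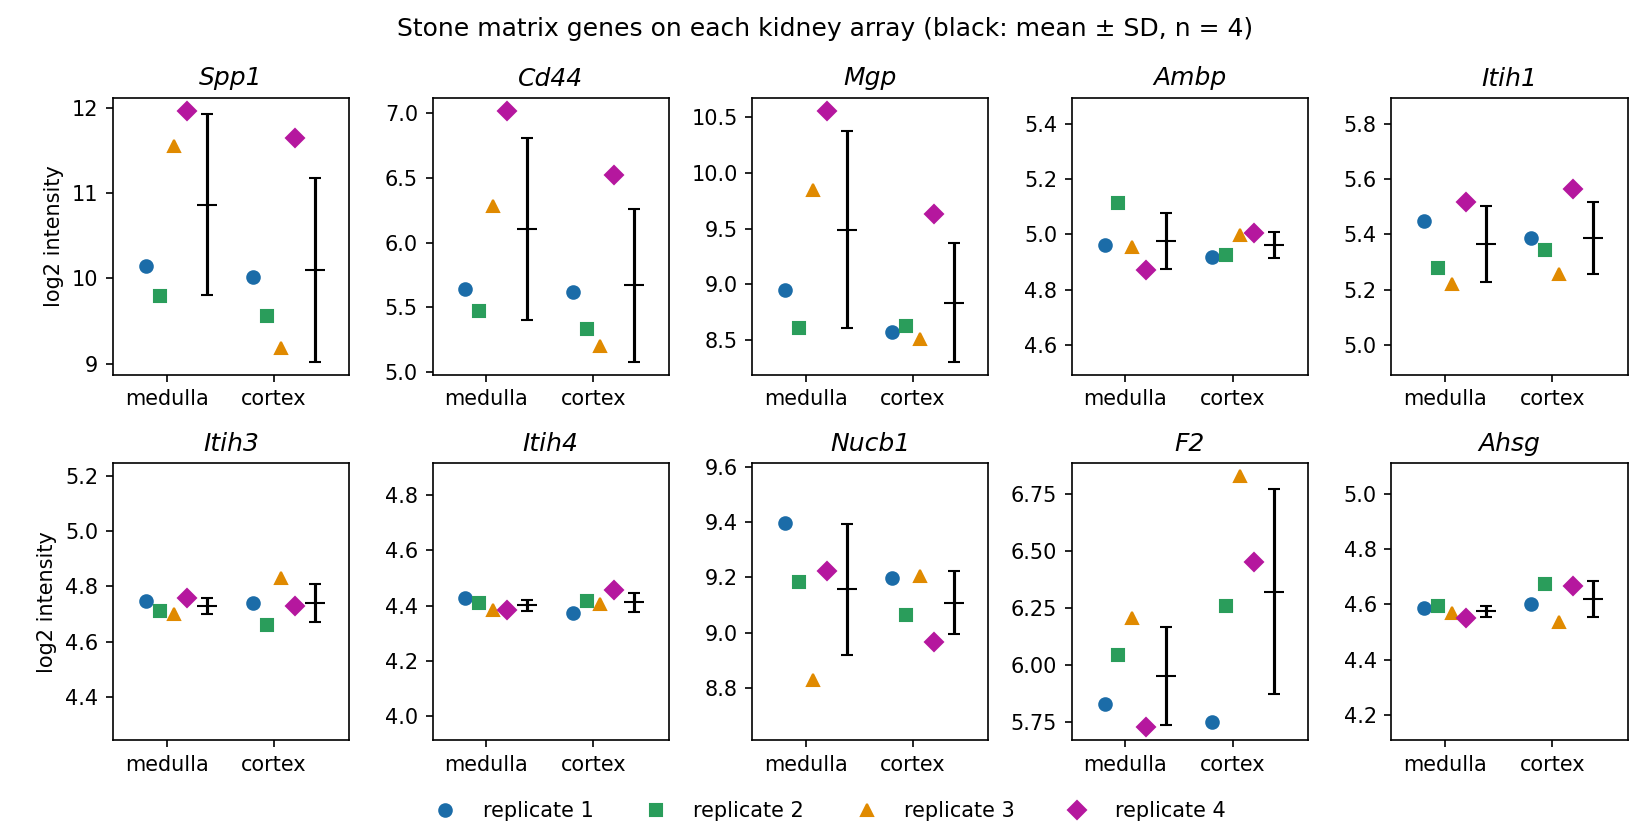
Log2 intensity of each of the 10 genes on the 4 medulla and 4 cortex arrays, with symbols for the arrays and black bars for mean ± SD (n = 4). Vertical axes differ between panels and span at least 1 log2 unit. Spp1, Cd44 and Mgp are highest on medulla replicate 4 and on cortex replicate 4, and high on medulla replicate 3 but not on cortex replicate 3.

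Spp1, the osteopontin gene, measured 10.14, 9.79, 11.55 and 11.97 on medulla replicates 1 to 4, against 10.01, 9.56, 9.18 and 11.64 on cortex replicates 1 to 4. Medulla replicates 3 and 4 and cortex replicate 4 lay at 11.55 or higher, and the other 5 arrays between 9.18 and 10.14, so the regions overlapped. The range was 4.51-fold between medulla arrays and 5.48-fold between cortex arrays, wider than in 99.7% of genes in each region. Without cortex replicate 4 the cortex range was 0.83, against 2.45 with it, and without medulla replicate 4 the medulla range was 1.76, against 2.17. On tissue arrays more cells of a type and more transcript per cell cannot be told apart, and transcript levels say nothing of how much protein was secreted or modified.

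Cd44, the receptor for hyaluronan and osteopontin, measured 5.64, 5.47, 6.28 and 7.02 on the medulla arrays, against 5.61, 5.33, 5.20 and 6.52 on the cortex arrays. The 8 arrays stood in the same order as for Spp1, but medulla replicate 3 lay midway between replicate 4 and the other medulla arrays. The range was 2.93-fold in medulla and 2.49-fold in cortex. Without cortex replicate 4 the cortex range was 0.41, and without medulla replicate 4 the medulla range was 0.81, both under 2-fold. A probe set sums over the transcript, so the splice forms of Cd44 were not separated.

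Mgp, whose product needs vitamin K dependent carboxylation to bind calcium, measured 8.95, 8.60, 9.85 and 10.56 on the medulla arrays, against 8.57, 8.62, 8.51 and 9.63 on the cortex arrays. Cortex replicates 1 to 3 lay within 0.12 log2 units of each other, and replicate 4 stood 1.12 above the lowest of them. The medulla arrays were spread more evenly, over 3.89-fold, and kept a range of 1.25 without replicate 4. The Mgp values of medulla replicates 3 and 4 both lay above every cortex value.

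With all arrays, 3 of the 10 genes had a range of at least 2-fold in medulla, 4 in cortex and 3 in both regions. Over all 18166 genes the shares were 3.8% in medulla, 3.6% in cortex and 2.21% in both. Of the 10 genes 3 passed in both regions and were highest on replicate 4 of both, beside 0.941% of all genes. Of the 402 genes that passed in both regions, these 3 included, 171 were highest on replicate 4 of both. Without cortex replicate 4, 1 gene (F2) still reached 2-fold between cortex arrays and 0 did so in each region. Without medulla replicate 4, 2 genes (Spp1 and Mgp) reached 2-fold between medulla arrays. Spp1, Cd44, Mgp and Itih1 had their highest value on medulla replicate 4 and on cortex replicate 4, as did 17% of all genes. The median range of the 10 genes was 0.39 in medulla and 0.27 in cortex, beside 0.25 and 0.21 over all genes.

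**Figure D2:**
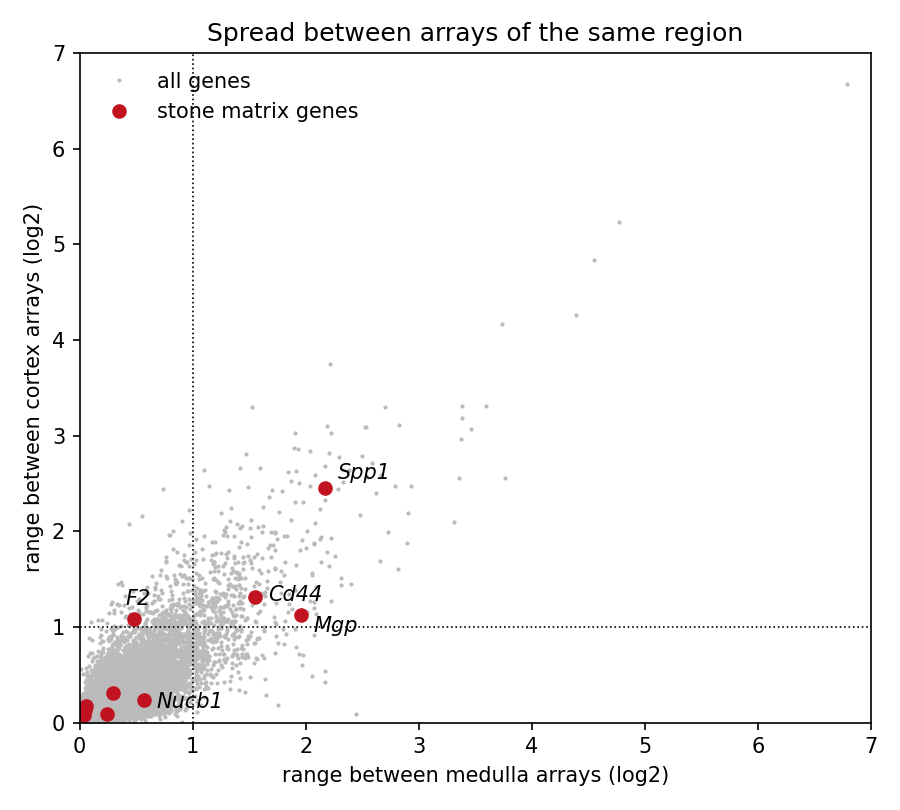
Range between the 4 cortex arrays (vertical, log2) against the range between the 4 medulla arrays (horizontal, log2) for 18166 genes in grey and the 10 stone matrix genes in red. Dotted lines mark 2-fold. Spp1, Cd44 and Mgp lie past both lines, F2 lies past the cortex line alone, and the other 6 lie below both.

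**Figure D3:**
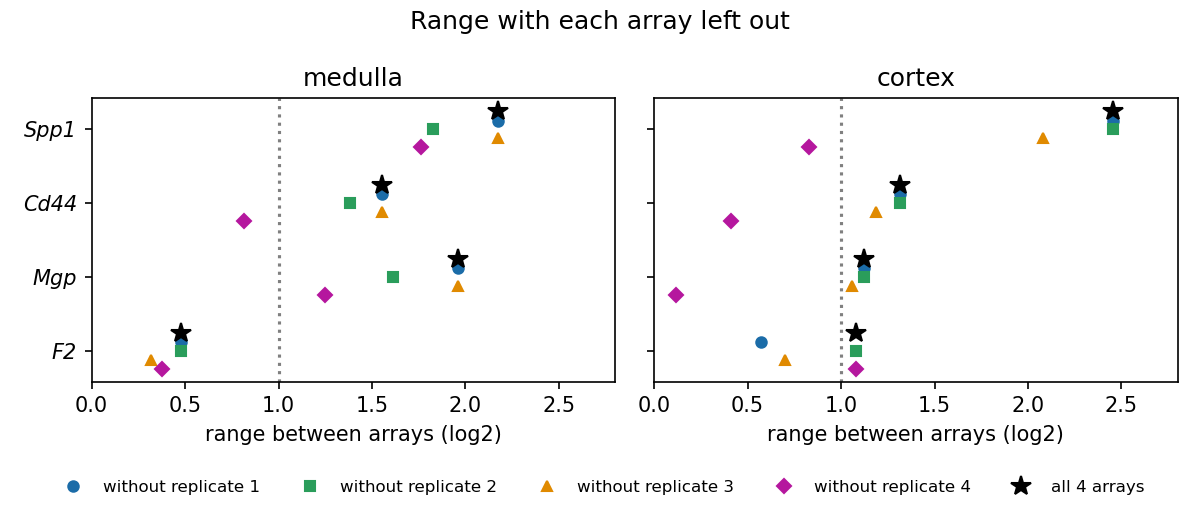
Range between arrays (log2) of Spp1, Cd44, Mgp and F2 with all 4 arrays of a region (star) and with each left out (coloured symbols), medulla on the left and cortex on the right. The dotted line marks 2-fold. Leaving out cortex replicate 4 brings Spp1, Cd44 and Mgp under the line in cortex, and leaving out cortex replicate 1 or 3 does so for F2.

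Similarity of pattern was measured as the root mean square difference between the deviations of 2 genes from their region means over the 8 arrays, where 0 is an identical pattern. Seen from Spp1, Mgp ranked 7 and Cd44 ranked 13 among 18165 other genes, at 0.39 and 0.40 log2 units. Seen from Mgp, Cd44 ranked 6 at 0.16. Seen from Cd44, Mgp ranked 18 and Spp1 ranked 890, since the swings of Spp1 were larger. The best-placed of the other 7 genes was Itih1, at rank 2691 or beyond from each of the 3. These ranks describe 8 arrays and carry no test.

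The genes closest to Spp1 were Osmr, the oncostatin M receptor subunit gene, at 0.28, the serine protease inhibitor gene Serpina3n at 0.30, the zinc finger transcription factor gene Klf6 at 0.30, the complement gene C7 at 0.35 and the galactosyltransferase gene A3galt2 at 0.35. Osmr measured 6.82, 6.70, 7.98 and 9.32 in medulla, against 6.95, 6.86, 6.66 and 9.06 in cortex. On medulla replicate 3 it lay further below medulla replicate 4 than Spp1 did. Closest to Cd44 were Rbm3, an RNA-binding protein gene induced by cold, at 0.09, Slfn9, the intracellular chloride channel gene Clic1, the cadherin gene Cdh6 and the phosphoinositide kinase regulatory subunit gene Pik3r1, the last at 0.13. Closest to Mgp were the cyclin gene Ccna2 at 0.10, Slfn9, the annexin gene Anxa1, the carboxypeptidase inhibitor gene Lxn and the glycoprotein gene Gpnmb, the last at 0.14. Slfn9 is the 1 gene on the lists of both Cd44 and Mgp.

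**Figure D4:**
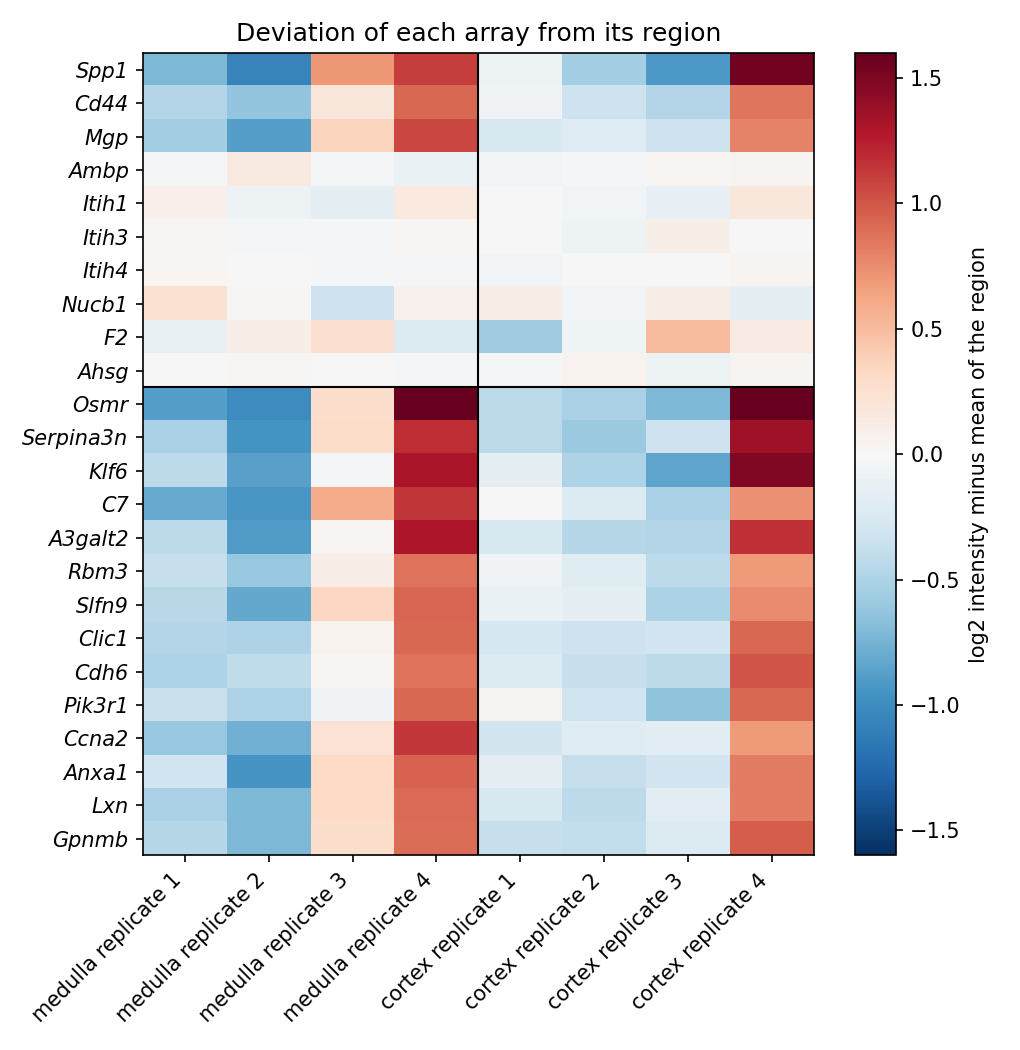
Log2 intensity minus the mean of the region for the 10 stone matrix genes (above the line) and the genes closest in pattern to Spp1, Cd44 and Mgp (below it), with medulla arrays left of cortex arrays. Colours run over ±1.6 log2 units. The replicate 4 columns are red for Spp1, Cd44 and Mgp and pale for the other stone matrix genes.

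Markers of injury and of other cells also differed between the arrays of a region. The 8 injury genes, all measured, summed to 968, 699, 3397 and 8349 intensity units on medulla replicates 1 to 4, against 759, 714, 1496 and 7284 on the cortex arrays. Havcr1, which encodes kidney injury molecule 1, was highest on replicate 4 of both regions, with a range of 6.79 in medulla and 6.68 in cortex. It measured 8.95 on medulla replicate 3 and 7.54 on cortex replicate 3, against 4.54 to 5.15 on replicates 1 and 2 of both regions. Spp1, Cd44 and Mgp were thus high together with Havcr1 on medulla replicate 3 and on the replicate 4 arrays. They had their lowest cortex values on replicate 3, however, where Havcr1 was above replicates 1 and 2. Cyp24a1 was likewise high on replicate 3 of both regions, at the values given above. Of the 8 injury genes 5 had a 2-fold range in both regions, beside 2.21% of all genes. The count was 3 without medulla replicate 4 and 2 without cortex replicate 4. Highest on replicate 4 of both regions were 6 of the 8, beside 17% of all genes.

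Leukocyte markers, 10 of 10 measured, summed to 1954 to 2859 units in medulla and 1906 to 2473 in cortex. Their sum was highest on the replicate 4 array of each region. Their mean deviation from the region was -0.15, -0.25, 0.07 and 0.33 on medulla replicates 1 to 4, the order of Spp1 there. In cortex this deviation was highest on replicate 1, at 0.19 against 0.11 on replicate 4. Of the 10 leukocyte markers, 4 had their highest values on replicate 4 of both regions, beside 17% of all genes. Ptprc, the pan-leukocyte gene, measured 6.70 on medulla replicate 4 and 6.20 on cortex replicate 4, against 5.46 to 6.17 on the others. Lyz2, the lysozyme gene and the 1 leukocyte marker with a 2-fold range in both regions, measured 8.96, 8.61, 9.78 and 9.76 in medulla, against 9.18, 8.59, 8.01 and 8.58 in cortex, so it was not highest on cortex replicate 4. It did not pass without medulla replicate 2 or cortex replicate 1 or 3. Smooth muscle and fibroblast markers, 7 of 9 measured, summed to 1004 to 2011 units in medulla and 850 to 1549 in cortex. Their sum was highest on medulla replicate 4 but on cortex replicate 1, and cortex replicate 4 had 1086. No value on these arrays was 0, and the lowest leukocyte markers, Cd163 and Itgam, lay under the array median throughout. Medulla markers, 6 of 7 measured, were lowest where Spp1, Cd44 and Mgp were highest. They summed to 5368, 3863, 3711 and 2077 units on medulla replicates 1 to 4, against 3869, 2949, 2406 and 967 on cortex replicates 1 to 4. Proximal tubule markers, 8 of 8 measured, summed to 9529, 10346, 7236 and 6223 units in medulla, against 9030, 10898, 10822 and 8792 in cortex. They were thus lower on medulla replicates 3 and 4, the arrays on which Spp1 was high, than on the other medulla arrays. The part of injury or of these cells in the Spp1, Cd44 and Mgp values was not tested.

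F2, which encodes prothrombin, measured 5.83, 6.04, 6.21 and 5.73 on the medulla arrays, against 5.75, 6.26, 6.83 and 6.45 on the cortex arrays. Its range was 2.12-fold in cortex and 1.39-fold in medulla. It was highest on replicate 3 of both regions, where Spp1 was high in medulla and lowest in cortex, so F2 did not follow osteopontin. The cortex range was 0.57 without cortex replicate 1 and 0.70 without cortex replicate 3, both under 2-fold. Podocyte markers, 3 of 5 measured, summed to 415 to 726 units in medulla and 522 to 812 in cortex, and like F2 had their lowest cortex sum on replicate 1 and their highest on replicate 3. In medulla they were highest on replicate 2, not on replicate 3 as F2 was. Their part in the F2 values was not tested.

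The bikunin and heavy chain genes hardly moved. Ambp measured 4.96, 5.11, 4.96 and 4.87 in medulla, against 4.92, 4.92, 5.00 and 5.01 in cortex. Itih1 measured 5.45, 5.28, 5.22 and 5.52 in medulla, against 5.39, 5.34, 5.26 and 5.56 in cortex, a spread of 1.23-fold and 1.24-fold. Its highest arrays were those of Spp1, medulla replicate 4 and cortex replicate 4, but on medulla replicate 3, where Spp1 was high, Itih1 was at its lowest. Itih3 lay between 4.70 and 4.76 in medulla and between 4.66 and 4.83 in cortex. Itih4, whose protein resembles the heavy chains but is not joined to bikunin, lay between 4.39 and 4.43 in medulla and between 4.37 and 4.46 in cortex. The 3 Itih genes are neighbours on chromosome 16 in the RefSeq gene table of GRCr8.

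These levels were close to the bottom of the array. The array medians were 5.09 to 5.12 log2 units and the lower quartiles 4.44 to 4.48. Itih4 lay under the lower quartile on all 8 arrays, Itih3 and Ahsg lay under the median on all 8, and Ambp on 7. So near background, true differences between arrays can be larger than those measured. Ahsg, the fetuin-A gene of liver, measured 4.59, 4.60, 4.57 and 4.55 in medulla, against 4.60, 4.67, 4.54 and 4.67 in cortex. Of 10 hepatocyte markers measured, 7 lay under the array median on all arrays, among them albumin (Alb) at 4.51 to 4.59 in medulla and 4.51 to 4.57 in cortex.

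Nucb1, which encodes the Golgi calcium-binding protein nucleobindin, was well above background. It measured 9.39, 9.18, 8.83 and 9.22 in medulla, against 9.20, 9.06, 9.20 and 8.97 in cortex. Its range was 1.48-fold in medulla and 1.18-fold in cortex. The lowest medulla value was on replicate 3, where Spp1, Cd44 and Mgp were high, and the lowest cortex value on replicate 4, where they were highest.

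The regional comparison asked whether these genes differed between medulla and cortex. None was called by limma, a linear model with a shared estimate of variance, at an adjusted p under 0.05 with a 2-fold difference. Over all genes 0% were called, 5.35% had an unadjusted p under 0.05, and 2.83% had all medulla values on 1 side of all cortex values. The smallest limma adjusted p over all genes was 0.875, so a gene that was not called may still differ between the regions. Of the 10 genes 0 were called, 0 had an unadjusted p under 0.05 and 0 did not overlap. Spp1 averaged 10.86 ± 1.06 in medulla and 10.10 ± 1.08 in cortex (SD, n = 4 each), a difference of 0.76 ± 0.67 (SE; limma adjusted p = 0.895). Mgp averaged 9.49 ± 0.89 in medulla and 8.83 ± 0.53 in cortex, a difference of 0.66 ± 0.46 (SE), and Cd44 averaged 6.10 ± 0.71 and 5.67 ± 0.59, a difference of 0.44 ± 0.41. F2 averaged 5.95 ± 0.21 in medulla and 6.32 ± 0.45 in cortex, a difference of -0.37 ± 0.22. The other 6 differences lay between -0.044 (Ahsg) and 0.049 (Nucb1). limma's adjusted p for the 10 genes ran from 0.876 to 0.978, and the exact two-sided permutation p over arrays from 0.2 to 0.857, where 4 against 4 can reach 0.0286.

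**Figure D5:**
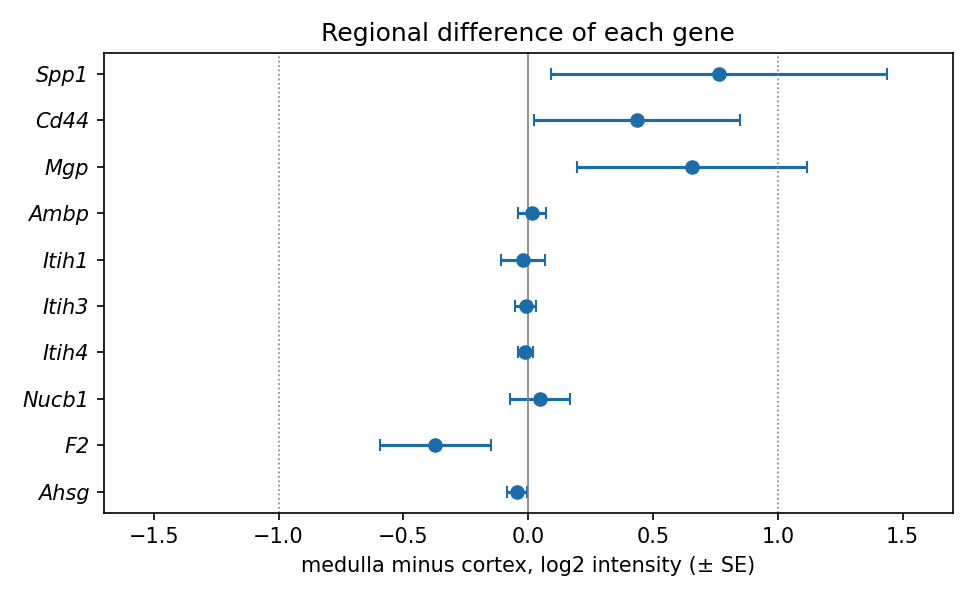
Medulla minus cortex difference in log2 intensity for each gene, with bars of 1 standard error from the limma fit. Dotted lines mark 2-fold in either direction. Spp1, Cd44 and Mgp lie right of 0 and F2 left of it, and the other 6 lie within 0.05 of 0.

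Differences were positive for 5 of the 10 genes and negative for 5, with a median of 0.0022. Over all genes 45.8% were positive and the median was -0.0071. Single arrays moved the larger differences. Without medulla replicate 4 the difference was 0.40 for Spp1, 0.13 for Cd44 and 0.30 for Mgp. Without cortex replicate 4 it was 1.28 for Spp1, past 2-fold, 0.72 for Cd44 and 0.92 for Mgp. For F2 it was -0.56 without cortex replicate 1 and -0.20 without cortex replicate 3. The region labels were checked on markers. Slc14a2, the urea transporter gene of the inner medullary collecting duct, measured 6.15 to 7.42 in medulla and 4.80 to 5.88 in cortex, and was chosen after its values were seen to separate the regions. All 6 measured markers of inner medulla and long loops had positive medulla minus cortex differences, with a median of 0.83. Their sums overlapped, at 2077 to 5368 units in medulla and 967 to 3869 in cortex, and medulla replicate 4 lay under cortex replicates 1 to 3. Of 3 measured podocyte markers 0 had a positive difference, with a median of -0.35, and of 8 proximal tubule markers 1 did, with a median of -0.36. The podocyte gene Nphs1 measured 5.87 to 6.73 in medulla and 6.23 to 7.15 in cortex. Cortical cell markers were thus lower in medulla for the most part, but were present in the medulla samples, and Nphs1 overlapped.

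Osteopontin partners were read from lists that do not include the 10 genes, and none of their genes was called between regions. Over all genes 2.21% had a 2-fold range in both regions, so a count of 0 says little about lists this short, here and below. Of 7 measured integrin subunits that bind osteopontin, 0 had a 2-fold range in both regions, and 7 of 7 differences were positive with a median of 0.19, where 45.8% of all genes were positive. The widest was Itgb6, the epithelial beta subunit, which measured 8.04, 7.90, 8.47 and 8.78 in medulla, against 7.68, 7.74, 8.12 and 8.89 in cortex. Itgb6 was highest on the replicate 4 arrays as Spp1 was, but stood above replicates 1 and 2 on replicate 3 of both regions. Of the 7 subunits 3 were highest on replicate 4 of both regions, beside 17% of all genes. Itgb5, Itga8 and Itga9 were instead lowest on both of these arrays, Itgb5 at 7.76 in medulla and 7.84 in cortex. Itgav and Itgb3 were not analysed here. Among 6 measured enzymes that act on osteopontin, 1 passed 2-fold in both regions. This was Tgm2, a transglutaminase that cross-links osteopontin, with 8.22, 8.15, 7.67 and 8.86 in medulla, against 8.04, 8.22, 8.08 and 9.28 in cortex. It too was highest on replicate 4 of both regions, but was lowest on medulla replicate 3, and did not pass without that array, medulla replicate 4 or cortex replicate 4. The osteopontin kinase gene Fam20c was lowest on those replicate 4 arrays, at 7.63 in medulla and 7.50 in cortex.

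Of 12 measured genes of hyaluronan synthesis, turnover and CD44 partners, 0 passed 2-fold in both regions. The synthase genes Has1, Has2 and Has3 lay under the array median on every array. Hyal1, a lysosomal hyaluronidase gene, was lowest where Cd44 was highest, with 7.48, 7.55, 7.33 and 6.58 in medulla, against 7.72, 7.20, 6.96 and 6.21 in cortex. Msn, the moesin gene, which tethers CD44 to actin, was highest on the replicate 4 arrays, at 9.91 in medulla and 9.77 in cortex, against 9.18 to 9.43 on the others. Of 8 measured genes of the vitamin K cycle and other Gla proteins, 0 passed in both regions. Vkorc1, the epoxide reductase that recycles vitamin K, was lowest where Mgp was highest, at 6.63 on medulla replicate 4 and 6.71 on cortex replicate 4. Gas6, another Gla protein gene, was also lowest there, at 8.55 in medulla and 8.42 in cortex, and so was Proz, at 5.70 and 6.04. Pros1 and Vkorc1l1 of the same list went the other way, each highest on medulla replicate 3 and cortex replicate 4. Pros1 measured 7.28 and 6.90 on these arrays and Vkorc1l1 7.29 and 7.20.

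There were 20 measured genes of other proteins reported in stone matrix or as crystal binders. Of these, 11 had a 2-fold range in medulla, 8 in cortex and 8 in both regions, beside 3.8%, 3.6% and 2.21% of all genes. Between regions 0 were called. Their median medulla minus cortex difference was 0.27. Of the 20, 8 were highest on replicate 4 of both regions, beside 17% of all genes. Fn1, the fibronectin gene, measured 8.79, 7.77, 9.0 and 9.69 in medulla, against 8.45, 7.93, 7.06 and 8.71 in cortex. Like Spp1 it was highest on replicate 4 and lowest on medulla replicate 2 and cortex replicate 3. Anxa2, an annexin gene whose protein binds crystals on the cell surface, measured 9.22 on medulla replicate 4 and 8.81 on cortex replicate 4, against 7.29 to 8.25 on the others. Ctsd, the lysosomal cathepsin D gene, measured 11.31 and 11.18 on these arrays, against 9.33 to 9.98 on the others. Dcn, the gene of the matrix proteoglycan decorin, had another order, with 9.18, 8.25, 9.60 and 9.18 in medulla, against 9.56, 8.77, 8.15 and 7.95 in cortex. It was highest on medulla replicate 3 and cortex replicate 1 and lowest on cortex replicate 4. Umod, the uromodulin gene of the thick ascending limb, was lowest on the replicate 4 arrays, at 10.54 and 10.73 there against 11.36 to 11.89. The count of 8 fell to 3 without medulla replicate 4, to 4 without medulla replicate 2 or cortex replicate 4, and to 5 without cortex replicate 1 or 3.

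Of 8 measured genes of the SIBLING family, to which osteopontin belongs, and of other proteins that act on calcification, 1 passed in both regions. The SIBLING genes Ibsp, Dmp1, Mepe and Dspp lay under the array median on all arrays, between 4.22 and 4.94, while Spp1 lay far above it on all. The gene that passed was Tnfrsf11b, which encodes osteoprotegerin, lowest on the replicate 4 arrays at 5.77 in medulla and 5.58 in cortex, against 6.40 to 7.48 on the others. It did not pass without medulla replicate 3 or cortex replicate 4. Alpl, the alkaline phosphatase gene, whose product is not an inhibitor of calcification, was also lowest on the replicate 4 arrays, at 7.76 and 8.56.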

How the data were processed

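Total RNA of rat kidney medulla and cortex was hybridised to Affymetrix whole-transcript arrays as biotin-labelled sense-strand DNA, per the labels. The authors deposited 1 linear intensity per probe set and array, for which the submitters' processing notes name RMA and Affymetrix Expression Console (versions not given in the sources used here). Intensity as deposited ran from 17.3 to 6229 with array medians of 34.1 to 34.7, and were logged here with no pseudocount. Of 29870 probe sets, 18511 had 1 gene symbol in the platform annotation, 575 several and 10784 none here. Matching by Entrez identifier to the RefSeq table of GRCr8 found 18394 and changed 0 symbols. The probe set with the highest mean was kept per gene, giving 18166 genes. Any 2 arrays had at most 1 value in common. Each array was a separate sample, and the number of arrays limits precision.

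Medulla was compared with cortex in limma 3.58.1 (R 4.3.3), adjusted over all genes by Benjamini-Hochberg, and with exact permutation tests. The fit was tested on simulated data. Alternatives were other scalings and probe set rules, a filter on dim genes, other limma settings, other range thresholds and each array left out. Genes named besides the 10 are the 5 closest in pattern to Spp1 and to other members with a 2-fold range in both regions, up to 4 per further list by the smaller regional range, and Umod, Fn1, Havcr1, Cyp24a1 and Alb. Ptprc, Msn, Vkorc1, Gas6, Proz, Pros1, Itgb5, Alpl, Fam20c and Nphs1 fall under that list rule. Cd163, Itgam, Itga8, Itga9, Vkorc1l1 and the Has and SIBLING genes were named after their values were seen. The members and lists were chosen with earlier results of these data known.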

Additional observations from a re-analysis of the deposited data

Results flagged for a closer look

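Cortex replicate 4 gave 9.63 for Mgp, and the other 3 cortex arrays gave 8.51 to 8.62. It was picked out because the gap to the nearest array was 0.895 of the whole range, above Dixon's 95% critical value for 4 samples. It was 1 of 20 sets of 4 values examined, and chance picks out about 1 in 20.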

How the results depend on the processing

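Under all alternatives run, 0 genes were called between medulla and cortex, the 10 genes included, and the adjusted p of these 10 lay between 0.502 and 1. No paired analysis was possible because the labels number the medulla and cortex arrays with no shared number. With 1 array left out, genes with a 2-fold range numbered 170 to 691 in medulla, 145 to 654 in cortex and 84 to 379 in both regions. Of the 10 genes, 2 to 3 passed in medulla, 1 to 4 in cortex and 0 to 3 in both. The number that did not overlap between regions was 0 to 1, namely F2 without cortex replicate 1 and Ahsg without cortex replicate 3. The share of all genes without overlap was not counted at these settings. Fewer arrays overlap less readily, so nothing about F2 or Ahsg is read from this. Without both replicate 4 arrays, a setting chosen after seeing the data, 170 genes passed in medulla, 145 in cortex and 45 in both. Of the 10 genes 1 passed in cortex and 0 in both, while Spp1 and Mgp still passed in medulla, with ranges of 1.76 and 1.25. At 1.5-fold, 2738 genes passed in medulla, 2063 in cortex and 1475 in both. At 3-fold it was 157, 186 and 96, and 1 of the 10, Spp1, in cortex and in both. In medulla Spp1 and Mgp passed 3-fold, with ranges of 4.51-fold and 3.89-fold. Differences near 0 changed sign. With 1 array left out they ran from -0.030 to 0.16 for Nucb1, -0.031 to 0.049 for Ambp, -0.072 to 0.037 for Itih1, -0.037 to 0.020 for Itih3 and -0.025 to 0.0033 for Itih4. Quantile normalization gave 0.0050 for Itih3 and 0.0033 for Itih4. Array weights gave 0.028 for Itih1, 0.0030 for Itih3 and 0.0030 for Itih4. Without both replicate 4 arrays it was 0.0087 for Itih4 and -0.020 for Nucb1. The cause was not tested. Signals near background limit what Itih3, Itih4, Ahsg and Ambp can show.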
